A study of Homo sapiens with 6 samples.

Results

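Aminoacyl-tRNA synthetases, the enzymes that join each amino acid to its transfer RNA, were followed as a group of 37 genes among the 20289 genes of the deposited table. The group was drawn by symbol and held 19 cytosolic enzymes (symbols ending in 1, A or B), 16 mitochondrial enzymes (symbols ending in 2) and the scaffold proteins AIMP1 and AIMP2. All 37 were found in the table and all 37 passed the filter on low counts. The study asked how overexpression of the long noncoding RNA LINC00665 alters gene expression in a bladder cancer line. Both groups were labelled as T24, a line from a human bladder carcinoma, grown in RPMI medium with fetal bovine serum. One group of 3 libraries was transfected by lipofection with pcDNA3.1, a plasmid whose strong viral promoter is active in most cells, carrying LINC00665 (LINC00665), and the other group of 3 received the Vector plasmid (Vector). Transfection of this kind is transient unless cells are selected, and the labels mention no selection, time point or share of cells reached. The design text describes 3 independent experiments.

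A synthetase activity recognises an amino acid and its tRNAs, and translation in the cytosol and in mitochondria each depends on tRNAs charged there. QARS1 has no mitochondrial counterpart, since mitochondria make glutaminyl-tRNA by amidation. The mitochondrial enzymes are encoded in the nucleus, mostly by separate genes, while GARS1 and KARS1 each make a cytosolic and a mitochondrial form. In the cytosol some of the enzymes join AIMP1, AIMP2 and the further scaffold EEF1E1 in the multi-tRNA synthetase complex. When amino acids run short or the endoplasmic reticulum is stressed, kinases phosphorylate eIF2 and the transcription factor ATF4 is translated, and many cytosolic synthetase genes are among its known targets. WARS1 is also known for its induction by interferon gamma.

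The libraries held 17289788 to 22725687 expected counts. Transcriptomes correlated at 0.704 to 0.724 between the labels (Pearson's r of log2(CPM + 0.5) across genes, which are not independent replicates), and at no less than 0.988 within LINC00665 and 0.965 within Vector. When the libraries were checked for swaps, 3 of 6 did not match their labelled line. No comparison between the labels would remain without those 3, so the plasmid and the origin of the cells cannot be told apart in any difference below, and the labels are used as given. Summed urothelial markers lay at 9734 to 11515 CPM under LINC00665 and 1041 to 3206 CPM under Vector (18 genes, 1 of them at 0 under LINC00665 and 4 under Vector), and 14 of the 15 tested rose. KRT19, a keratin of urothelium, averaged 2813 ± 387 CPM under LINC00665 and 1.08 ± 0.326 CPM under Vector. Summed kidney epithelial markers lay at 33.4 to 35.7 CPM under LINC00665 and 336 to 458 CPM under Vector (10 genes, 2 at 0 under each label). Summed fibroblast markers lay at 244 to 272 CPM under LINC00665 and 2.07 to 4.10 CPM under Vector, endothelial markers at 11.8 to 13.5 CPM under LINC00665 and 0.280 to 1.14 CPM under Vector, and leukocyte markers at 26.3 to 38.8 CPM under LINC00665 and 10.8 to 17.1 CPM under Vector. In bulk RNA, fewer cells of a type and less RNA per cell cannot be told apart. LINC00665 itself was not analysed here.

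Of the 37 genes, 21 passed the test (56.8%), against 63.5% of the 13552 genes tested, so the share of changed synthetase genes lay near that of the table. The 21 split into 6 that rose and 15 that fell under LINC00665, whereas 34.2% of all tested genes rose and 29.3% fell. The median log2 fold change (LINC00665 over Vector) was -0.31 over the 37 genes and 0.03 over all tested genes. Changes were moderate in size. Only 6 of the 37 (16.2%) passed with a change of at least 1 on the log2 scale in either direction, against 42% of all tested genes, and 5 of those 6 were mitochondrial enzymes. Libraries of the labels did not overlap for 22 of the 37 genes, against 70.2% of all tested genes. Without overlap, 8 of the 37 were higher under LINC00665, against 37.9% of all tested genes, and 14 of the 37 were lower, against 32.3%. Without Vector library 3, 10 of the 37 rose, against 36% of all genes tested, and 15 fell, against 30.3%. Without LINC00665 library 1, 5 rose, against 30.5%, and 9 fell, against 23.9%.

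**Figure D1:**
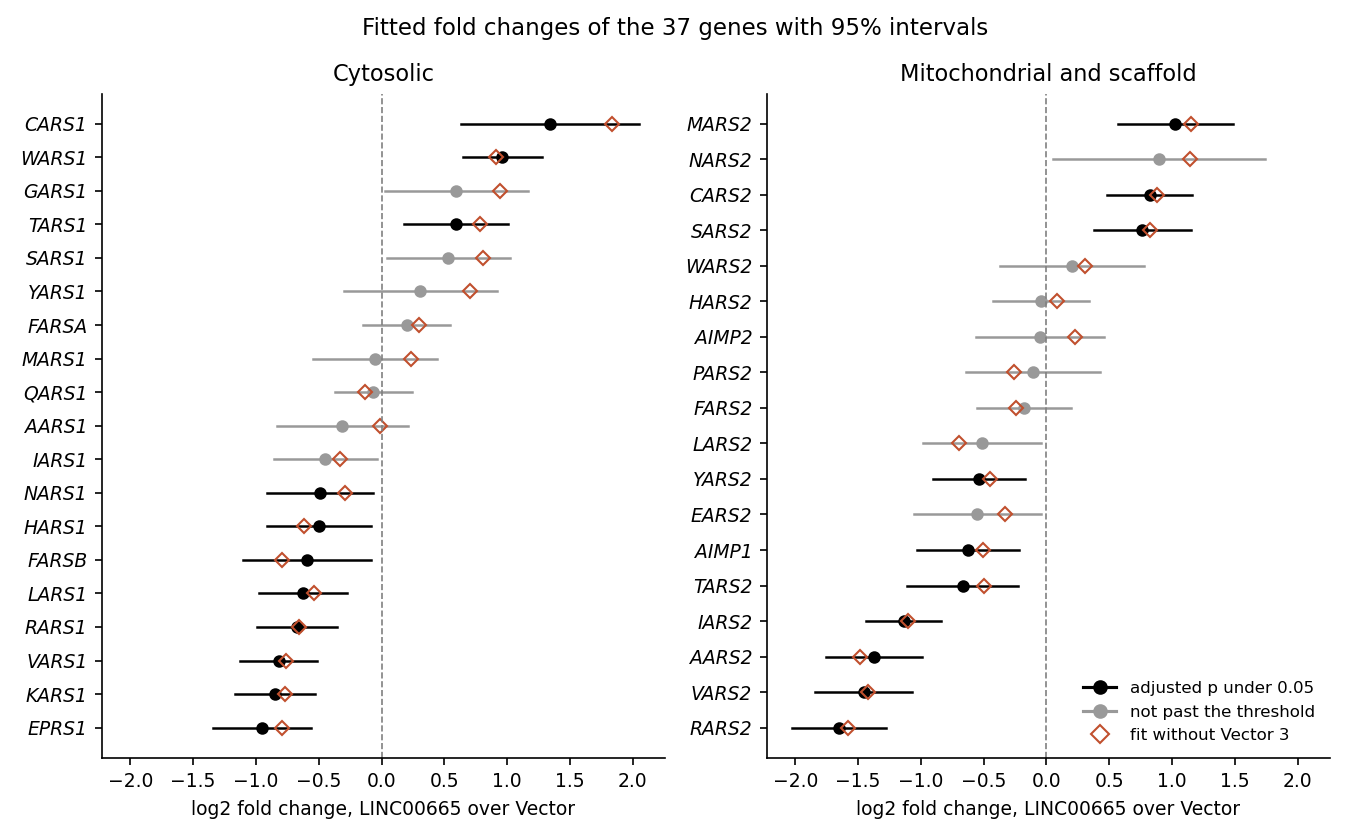
Log2 fold change (LINC00665 over Vector, x axis) of the 37 genes with 95% intervals from the edgeR fit, with black points for genes that passed, grey points for those that did not, and open diamonds for the fit without Vector library 3. The extremes are CARS1 at 1.34 among cytosolic enzymes and RARS2 at -1.65 among mitochondrial ones.

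Per unit of transcript length (FPKM), cytosolic enzymes had a higher median level than mitochondrial ones under both labels. The median mean level of the 19 cytosolic enzymes was 81.7 FPKM under LINC00665 and 73.2 FPKM under Vector, and that of the 16 mitochondrial enzymes was 7.66 FPKM under LINC00665 and 12.1 FPKM under Vector. MARS1, the methionyl enzyme, headed the order under both labels, at 179.7 ± 34.9 FPKM under LINC00665 and 246 ± 39.6 FPKM under Vector (SD, n = 3 each), although the length those values assign to it varied 1.97-fold between libraries. It was followed under LINC00665 by SARS1 at 168 ± 13.6 FPKM, a gap within the spread of the libraries. Under Vector KARS1 came next at 214 ± 20.01 FPKM, also within the spread. The mitochondrial prolyl enzyme PARS2 stood last, at 2.54 ± 0.375 FPKM under LINC00665 and 3.05 ± 0.690 FPKM under Vector. FARSB, the beta subunit of the phenylalanyl enzyme, was the lowest cytosolic gene, at 7.51 ± 1.17 FPKM under LINC00665 and 12.6 ± 3.54 FPKM under Vector, while FARSA, the alpha subunit of the same heterotetramer, had 66.3 ± 5.76 FPKM under LINC00665 and 70.4 ± 7.03 FPKM under Vector. The values assign FARSB a length of 6759 to 6762 bases, against 3369 annotated exonic bases, so its level and its gap to FARSA are uncertain. In the mitochondrial set the highest level was that of CARS2 under LINC00665, at 35.6 ± 1.57 FPKM, and of IARS2 under Vector, at 64.4 ± 3.81 FPKM.

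Among the 19 cytosolic enzymes 57.9% passed, against 63.5% of all tested genes. Of the 19, 3 rose, 8 fell and 8 did not pass, with a median log2 fold change of -0.31. The enzymes that rose were those for tryptophan, cysteine and threonine. WARS1 (ENSG00000140105, chr14:100333788-100376805, minus strand) had 227, 193 and 202 CPM in LINC00665 libraries 1 to 3, against 111, 109.6 and 99.4 CPM in Vector libraries 1 to 3. Its groups were well apart and tight, with a log2 fold change of 0.96 (standard error 0.14, adjusted p = 0.00041). CARS1 (ENSG00000110619, chr11:3000922-3057613, minus strand) had 264, 250.2 and 264 CPM in the LINC00665 libraries, against 71.5, 74.1 and 162 CPM in the Vector libraries. It changed most among cytosolic enzymes, at 1.34 (standard error 0.31, adjusted p = 0.0053), and its spread lay in the Vector group, where library 3 held a far higher level than libraries 1 and 2. TARS1 (ENSG00000113407, chr5:33440696-33469539, plus strand) had 294, 269 and 302 CPM in the LINC00665 libraries, against 176, 158 and 239.9 CPM in the Vector libraries. Its change was smaller, at 0.59 (standard error 0.18, adjusted p = 0.019), and missed the threshold without LINC00665 library 1 (adjusted p = 0.06), LINC00665 library 3 (adjusted p = 0.075) or Vector library 1 (adjusted p = 0.07).

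**Figure D2:**
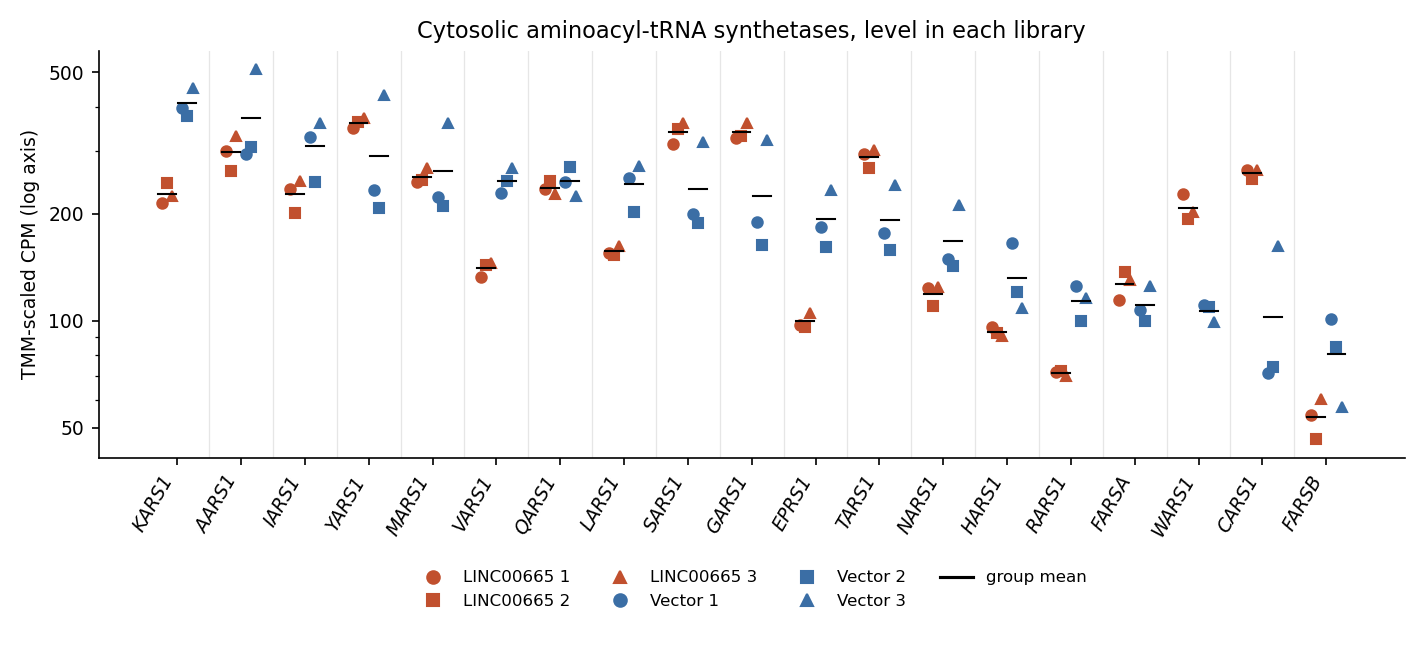
TMM-scaled CPM (log y axis) of the 19 cytosolic enzymes in each library, LINC00665 left and Vector right within each gene, with a bar at the group mean. WARS1 and CARS1 lie higher in all LINC00665 libraries, KARS1 and EPRS1 lie lower, and Vector library 3 stands above the other Vector libraries for GARS1, SARS1, YARS1, AARS1 and MARS1.

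The enzymes that fell were led by KARS1, VARS1, EPRS1 and RARS1. KARS1 (ENSG00000065427, chr16:75627474-75648643, minus strand), the lysyl enzyme whose gene serves both compartments, had 214, 243 and 224 CPM in the LINC00665 libraries, against 397, 377 and 451 CPM in the Vector libraries. The groups were far apart, with a log2 fold change of -0.85 (standard error 0.14, adjusted p = 0.00083). VARS1 (ENSG00000204394, chr6:31777518-31795953, minus strand), the valyl enzyme, had 133, 143 and 145 CPM in the LINC00665 libraries, against 228, 246 and 269 CPM in the Vector libraries. Its highest LINC00665 library stayed far below its lowest Vector library, at -0.82 (standard error 0.13, adjusted p = 0.00085). EPRS1 (ENSG00000136628, chr1:219968601-220046658, minus strand), which carries the glutamyl and prolyl activities in 1 protein, had 97.4, 95.8 and 105 CPM in the LINC00665 libraries, against 183, 161 and 233 CPM in the Vector libraries. The change was -0.95 (standard error 0.17, adjusted p = 0.0013). RARS1 (ENSG00000113643, chr5:168486445-168519299, plus strand), the arginyl enzyme, had 71.7, 71.98 and 69.99 CPM in the LINC00665 libraries, against 125, 99.7 and 116 CPM in the Vector libraries. The LINC00665 libraries lay within a narrow band below the Vector libraries, at -0.67 (standard error 0.14, adjusted p = 0.0032). The leucyl enzyme LARS1 fell by 0.63 on the log2 scale (adjusted p = 0.0067). The remaining calls were weaker. HARS1 (log2 fold change -0.50, adjusted p = 0.04) missed the threshold without any LINC00665 library or without Vector library 1 (adjusted p = 0.095 to 0.12), FARSB (-0.59, adjusted p = 0.044) without any library but Vector 3 (adjusted p = 0.064 to 0.16), and NARS1 (-0.49, adjusted p = 0.044) without any LINC00665 library or without Vector library 3 (adjusted p = 0.083 to 0.12). FARSB was the only member that passed with overlapping groups.

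The splits by membership of the multi-tRNA synthetase complex and by class are to be read against all tested genes. Of those 34.2% rose and 29.3% fell. Of the 7 synthetase genes of the complex (EPRS1, IARS1, KARS1, LARS1, MARS1, QARS1 and RARS1) none rose, 4 fell and 3 did not pass, with a median log2 fold change of -0.63. The log2 fold change was -0.45 for IARS1 (adjusted p = 0.054), -0.06 for QARS1 (adjusted p = 0.69) and -0.05 for MARS1 (adjusted p = 0.84). Of the 12 cytosolic genes outside it 3 rose, 4 fell and 5 did not pass, with a median of 0.25. No test of this difference was made. Of the scaffolds, AIMP1 (ENSG00000164022, chr4:106315544-106349226, plus strand) had 19.6, 20.5 and 21.4 CPM in the LINC00665 libraries, against 32.7, 25.3 and 36.9 CPM in the Vector libraries. It fell, at -0.63 (standard error 0.18, adjusted p = 0.014), and lost its call without LINC00665 library 1 (adjusted p = 0.061). AIMP2 (ENSG00000106305, chr7:6009245-6023834, plus strand) had 38.4, 42.8 and 41.03 CPM in the LINC00665 libraries, against 37.9, 31.6 and 57.02 CPM in the Vector libraries, and its groups overlapped (log2 fold change -0.05, adjusted p = 0.86). EEF1E1, the other scaffold of the complex, averaged 10.6 ± 0.778 CPM under LINC00665 and 24.7 ± 2.56 CPM under Vector and fell, at -1.22 (standard error 0.16, adjusted p = 0.00029). By structural class, class I cytosolic enzymes numbered 2 that rose and 3 that fell of 9, and class II numbered 1 that rose and 4 that fell of 9, with EPRS1, which belongs to both classes, left out.

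The 8 cytosolic enzymes that did not pass were AARS1, FARSA, GARS1, IARS1, MARS1, QARS1, SARS1 and YARS1. For several of them the Vector libraries were spread more widely than the labels differed. GARS1 (ENSG00000106105, chr7:30594681-30634033, plus strand), the glycyl enzyme of both compartments, had 326, 331 and 359.9 CPM in the LINC00665 libraries, against 189, 163 and 322 CPM in the Vector libraries. All 3 LINC00665 libraries were higher, but the third Vector library came close to them, and the log2 fold change was 0.59 (standard error 0.25, adjusted p = 0.065). SARS1, the seryl enzyme, had 313, 347 and 359 CPM in the LINC00665 libraries, against 199.6, 188 and 317 CPM in the Vector libraries. YARS1, the tyrosyl enzyme, had 349, 361 and 371 CPM in the LINC00665 libraries, against 234, 208 and 432 CPM in the Vector libraries, so that its Vector libraries lay on both sides of LINC00665. AARS1, the alanyl enzyme, had 300.1, 264 and 331 CPM in the LINC00665 libraries, against 294, 307 and 509 CPM in the Vector libraries. Here 2 Vector libraries lay at the LINC00665 level and the third above it. The log2 fold changes were 0.53 for SARS1, 0.31 for YARS1, -0.31 for AARS1 and 0.20 for FARSA (adjusted p = 0.057, 0.34, 0.26 and 0.27). Over the 37 genes the median coefficient of variation of CPM was 6.51% within LINC00665 and 19.2% within Vector, and it was higher within Vector for 34 of the 37. The wider Vector spread was shared by the table, whose biological coefficient of variation was 12.8% within LINC00665 and 28.6% within Vector.

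Vector library 3 stood apart among the known ATF4 targets and was singled out after its values were seen. The ATF4-listed enzymes were AARS1, CARS1, EPRS1, GARS1, IARS1, LARS1, MARS1, NARS1, SARS1, TARS1, VARS1, WARS1 and YARS1, a list made from general knowledge of the pathway. In 12 of these 13 genes (92.3%) Vector library 3 was the highest of the Vector libraries, WARS1 being the exception, against 36.6% of all tested genes. LINC00665 library 3 was likewise the highest LINC00665 library in 11 of the 13 (84.6%), against 30.9% of all tested genes, by a smaller margin (median log2 ratio to the mean of LINC00665 libraries 1 and 2 of 0.10). Vector library 3 was the highest Vector library in 2 of the 6 cytosolic enzymes not on the list, in 10 of the 16 mitochondrial enzymes and in both scaffolds. The median log2 ratio of Vector library 3 to the mean of Vector libraries 1 and 2 was 0.54 for the 13 listed enzymes. It was 0.53 for the 2 scaffolds, which are not on the list, and -0.08 for the 6 other cytosolic enzymes. For the mitochondrial enzymes it was 0.19, and for all tested genes 0. Summed CPM of the 13 listed enzymes was 3062, 2966 and 3242 in LINC00665 libraries 1 to 3, against 2637, 2414 and 3784 in Vector libraries 1 to 3. Vector library 3 thus exceeded every LINC00665 library while the other Vector libraries lay below all of them. The 6 others summed to 785, 838 and 801 CPM in the LINC00665 libraries, against 1142, 1051 and 1082 CPM in the Vector libraries, with no such excess and with the groups apart.

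**Figure D3:**
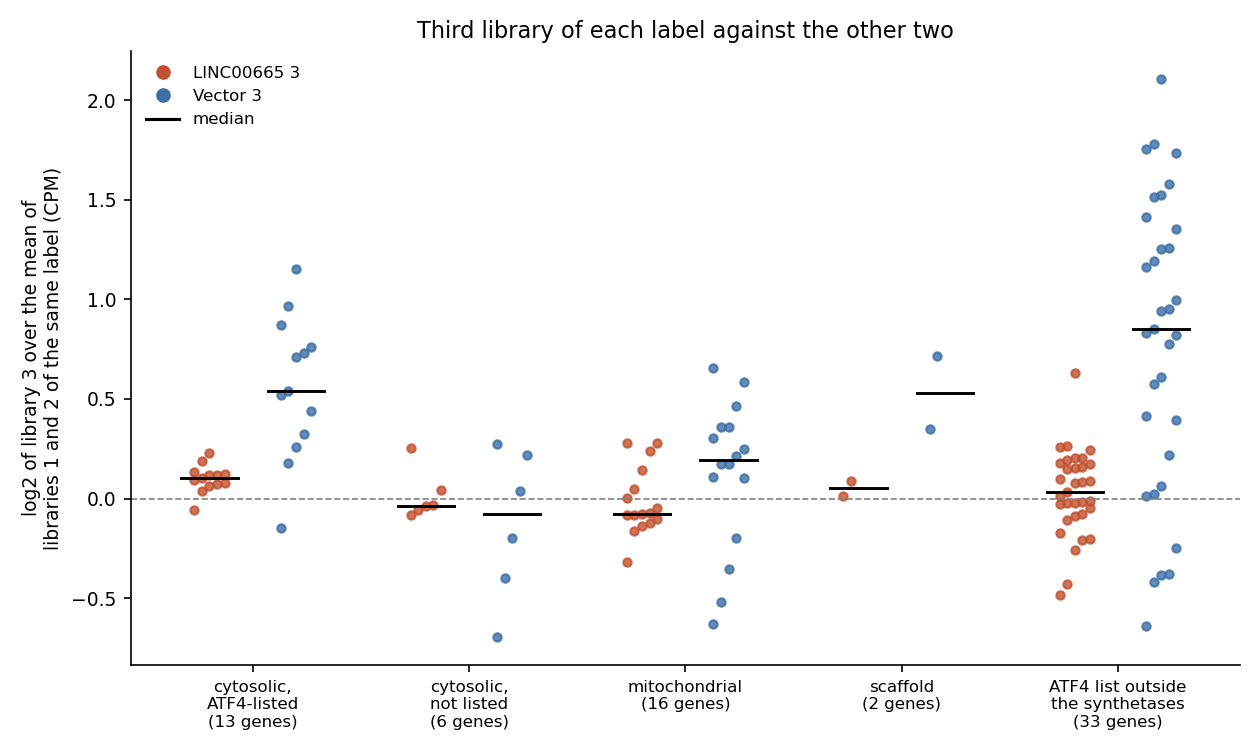
Log2 ratio of library 3 to the mean of libraries 1 and 2 of the same label (y axis) for each gene, LINC00665 left and Vector right within each gene set, with a bar at the median. Vector 3 lies above 0 for 12 of the 13 ATF4-listed cytosolic enzymes, with a median of 0.54, and the median of LINC00665 3 for the same enzymes is 0.10. The last set shows the ATF4 list genes outside the synthetases for which the ratio could be formed.

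Other transcripts moved in the same Vector library. ATF4 mRNA itself had 579, 677 and 596 CPM in the LINC00665 libraries, against 345, 289 and 757 CPM in the Vector libraries. Of the 36 genes of a list of ATF4 and amino acid response genes outside the synthetases, 24 were highest in Vector library 3 among the Vector libraries. Summed urothelial markers also stood out there, at 1339, 1041 and 3206 CPM in Vector libraries 1 to 3, with 8 of the 18 markers (44.4%) highest in library 3. Interferon gamma response genes summed to 971, 851 and 1505 CPM in Vector libraries 1 to 3, but only 9 of the 24 (37.5%) were highest in library 3, close to the 36.6% of all tested genes. The part of these in the result was not tested. Without Vector library 3, cytosolic enzymes counted 6 that rose and 7 that fell, with a median of -0.13. Of all genes tested in that fit 36% rose and 30.3% fell. GARS1 (log2 fold change 0.94, adjusted p = 0.0006), SARS1 (0.81, adjusted p = 0.0011) and YARS1 (0.70, adjusted p = 0.0021) then passed as higher and NARS1 (-0.29, adjusted p = 0.09) no longer passed. CARS1 grew to 1.83, adjusted p = 1.1e-05. The fit without Vector library 3 compares 3 LINC00665 with 2 Vector libraries. That library was left out after it was seen to be the highest Vector library for these genes. The larger rises and smaller p-values without it follow from that choice and are no support of their own.

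ATF4 is known to bind, with C/EBP partners, elements whose core is TGATGNAA, and the promoters of the genes that carry these letters are shown because the ATF4-listed enzymes moved together in Vector library 3. RefSeq windows (GRCh38.p14) from 250 bases before to 50 after a gene start were at hand for 32 of the 37 genes, and AARS2, LARS1, VARS1, VARS2 and YARS1 had none. TGATGNAA was searched on both strands. It was found in 7 of the 10 ATF4-listed cytosolic enzymes with a window, in 0 of the 6 not listed, in 1 of the 14 mitochondrial enzymes and in 0 of the 2 scaffolds, against 4.46% of the 27305 genes with a window. The matches are printed 5′ to 3′ on the strand of the gene, 30 bases each, with the match in capitals and in the letters of the printed strand, so that a match on the opposite strand reads as its reverse complement.
AARS1 (chr16:70289675-70289704, minus strand): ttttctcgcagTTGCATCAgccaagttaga
CARS1 (chr11:3057407-3057436, minus strand): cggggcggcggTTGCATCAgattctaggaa
GARS1 (chr7:30594834-30594863, plus strand): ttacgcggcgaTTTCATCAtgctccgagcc
IARS1 (chr9:92293692-92293721, minus strand): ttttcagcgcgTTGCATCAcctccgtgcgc
MARS1 (chr12:57488053-57488082, plus strand): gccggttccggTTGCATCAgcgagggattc
NARS1 (chr18:57621804-57621833, minus strand): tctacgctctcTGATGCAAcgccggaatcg
TARS1 (chr5:33440956-33440985, plus strand): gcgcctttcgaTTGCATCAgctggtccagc
YARS2 (chr12:32756076-32756105, minus strand): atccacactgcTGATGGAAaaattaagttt
Of the 7 listed genes, 6 carry the element on the opposite strand and NARS1 on the strand of the gene. The match began 2 bases before the gene start in CARS1, 4 before it in MARS1, 13 before it in IARS1 and 33 before it in GARS1, and 2 and 14 bases after it in TARS1 and NARS1. In AARS1 and YARS2 it lay 187 and 197 bases before the start. The 7 genes differed in their response to the label, since CARS1 and TARS1 rose, NARS1 fell and AARS1, GARS1, IARS1 and MARS1 did not pass. In all 7 Vector library 3 was the highest Vector library, and so it was in EPRS1 and SARS1, which had a window without the element. A match in letters is a description and not evidence of binding. The list was made from general knowledge of ATF4 targets, in which such elements may have played a part. The shares of listed and other genes with a match are therefore not independent of the list.

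WARS1 had no TGATGNAA in its window, like EPRS1 and SARS1, and unlike both it was not highest in Vector library 3. Its window held a match to TTCNNNGAA, a core element of interferon gamma response promoters, and a match to the core of the interferon-stimulated response element (ISRE). These began 142 and 55 bases before the start and are in capitals below.
WARS1 (chr14:100375381-100375501, minus strand): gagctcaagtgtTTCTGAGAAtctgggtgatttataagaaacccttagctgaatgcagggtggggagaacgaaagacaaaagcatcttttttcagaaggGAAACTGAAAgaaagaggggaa
Windows of 5 of the 32 genes held TTCNNNGAA and those of 2 held the ISRE core, against 9.38% and 4.38% of all genes with a window, both strands searched. The E-box CACGTG, searched in the same way, was in windows of 5 of the 32 genes, against 8.78% of all genes with a window. Among 24 interferon gamma response genes 21 were tested, of which 13 rose and 1 fell, with a median log2 fold change of 1.08. Of all tested genes 34.2% rose and 29.3% fell. A link between this list and the WARS1 level was not tested. The guanylate-binding proteins led the list. GBP1 averaged 28.7 ± 5.79 CPM under LINC00665 and 1.19 ± 0.226 CPM under Vector, GBP2 49.7 ± 3.35 CPM under LINC00665 and 2.62 ± 1.72 CPM under Vector, GBP4 16.4 ± 6.07 CPM under LINC00665 and 0.294 ± 0.286 CPM under Vector and GBP5 2.31 ± 0.578 CPM under LINC00665 and 0.0340 ± 0.0298 CPM under Vector.

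Among the 16 mitochondrial enzymes 56.25% passed, against 63.5% of all tested genes. Of the 16, 3 rose, 6 fell and 7 did not pass, with a median log2 fold change of -0.35. Their summed level was 485, 503 and 479 CPM in LINC00665 libraries 1 to 3, against 725, 643 and 751 CPM in Vector libraries 1 to 3. The sum was lower in every LINC00665 library than in any Vector library, while the cytosolic sum overlapped, at 3847, 3804 and 4043 CPM in the LINC00665 libraries, against 3779, 3465 and 4866 CPM in the Vector libraries. Within the mitochondrial sum, IARS2 alone averaged 97.7 ± 5.72 CPM under LINC00665 and 215 ± 10.7 CPM under Vector. Mitochondrial enzymes also changed more in size than cytosolic ones, with a median absolute log2 fold change of 0.71 against 0.59. This difference was not tested. Of the mitochondrial enzymes 31.25% passed with a change of at least 1 in either direction, against 42% of all tested genes.

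**Figure D4:**
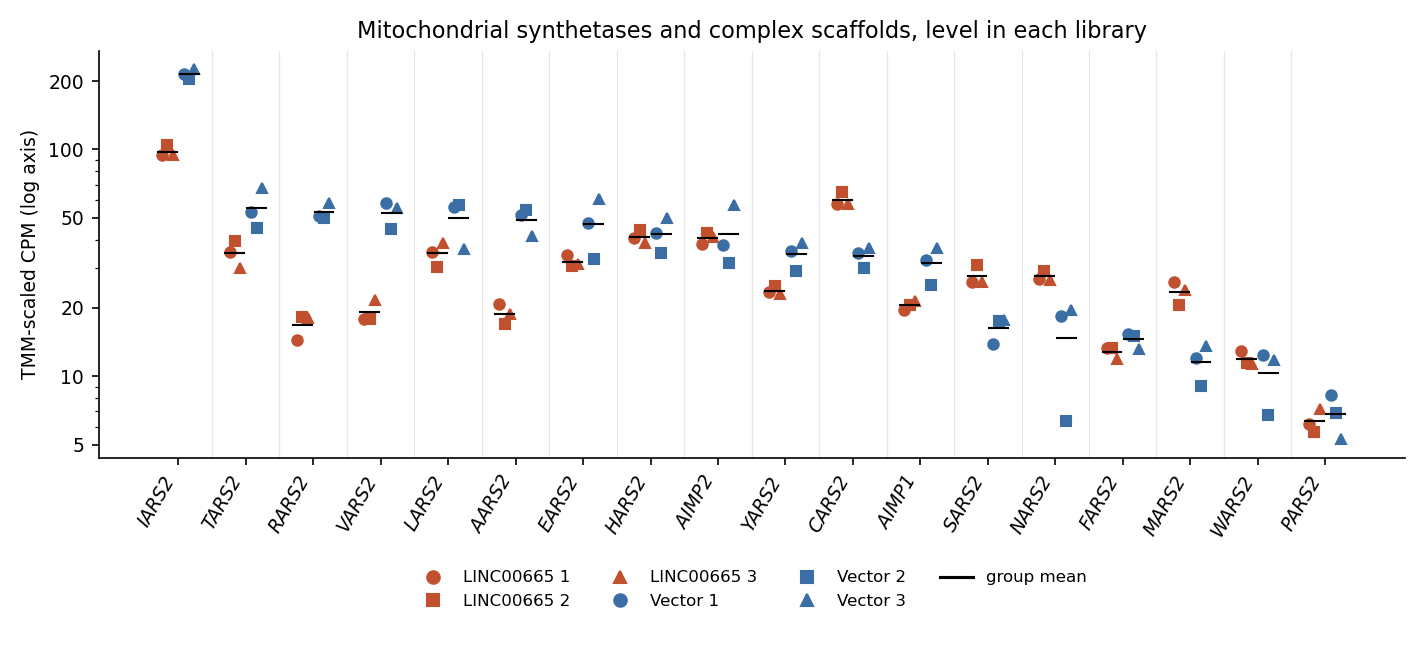
TMM-scaled CPM (log y axis) of the 16 mitochondrial enzymes and the scaffolds AIMP1 and AIMP2 in each library, LINC00665 left and Vector right within each gene, with a bar at the group mean. RARS2, IARS2, VARS2 and AARS2 lie lower in all LINC00665 libraries and CARS2, MARS2 and SARS2 lie higher.

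RARS2 (ENSG00000146282, chr6:87514378-87590003, minus strand), the mitochondrial arginyl enzyme, fell most of all 37 genes. It had 14.4, 18.2 and 17.98 CPM in the LINC00665 libraries, against 50.8, 49.8 and 58.3 CPM in the Vector libraries. The log2 fold change was -1.65 (standard error 0.16, adjusted p = 4.9e-05). IARS2 (ENSG00000067704, chr1:220094102-220148041, plus strand), the isoleucyl enzyme, had 94.6, 104 and 94.2 CPM in the LINC00665 libraries, against 215, 204 and 225 CPM in the Vector libraries. Its libraries agreed closely under both labels, at -1.14 (standard error 0.13, adjusted p = 0.00012). VARS2 (ENSG00000137411, chr6:30908242-30926459, plus strand), the valyl enzyme, had 17.9, 17.97 and 21.8 CPM in the LINC00665 libraries, against 58.04, 44.5 and 55.3 CPM in the Vector libraries, and fell at -1.46 (standard error 0.17, adjusted p = 0.00013). AARS2 (ENSG00000124608, chr6:44299654-44313326, minus strand), the alanyl enzyme, had 20.7, 17.02 and 18.9 CPM in the LINC00665 libraries, against 51.2, 54.3 and 41.3 CPM in the Vector libraries. Its groups were far apart too, at -1.37 (standard error 0.17, adjusted p = 0.00017). The threonyl enzyme TARS2 (log2 fold change -0.67, adjusted p = 0.015) and the tyrosyl enzyme YARS2 (-0.54, adjusted p = 0.017) fell less, and both missed the threshold without LINC00665 library 1 (adjusted p = 0.052 for TARS2 and 0.069 for YARS2) or library 3 (adjusted p = 0.064 and 0.066).

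The mitochondrial enzymes that rose were those for cysteine, methionine and serine. CARS2 (ENSG00000134905, chr13:110641412-110713603, minus strand) had 57.4, 64.8 and 57.7 CPM in the LINC00665 libraries, against 35.1, 30.04 and 36.7 CPM in the Vector libraries. Its groups were clear of each other, with a log2 fold change of 0.82 (standard error 0.15, adjusted p = 0.0014). MARS2 (ENSG00000247626, chr2:197705369-197708387, plus strand), the methionyl enzyme, had 25.9, 20.6 and 24.1 CPM in the LINC00665 libraries, against 12.1, 9.05 and 13.6 CPM in the Vector libraries. It rose at 1.02 (standard error 0.20, adjusted p = 0.0022). SARS2 (ENSG00000104835, chr19:38915266-38930896, minus strand) had 25.95, 30.9 and 26.1 CPM in the LINC00665 libraries, against 13.8, 17.4 and 17.6 CPM in the Vector libraries, and rose at 0.76 (standard error 0.17, adjusted p = 0.0043). Both cysteinyl enzymes thus rose, CARS1 and CARS2, and both arginyl and both valyl enzymes fell, whereas of the threonyl enzymes TARS1 rose and TARS2 fell. The 7 that did not pass were EARS2, FARS2, HARS2, LARS2, NARS2, PARS2 and WARS2, with log2 fold changes between -0.55 and 0.89. NARS2, the asparaginyl enzyme, had 26.9, 29.1 and 26.6 CPM in the LINC00665 libraries, against 18.5, 6.33 and 19.6 CPM in the Vector libraries. Its groups did not overlap, but Vector library 2 was far below the other Vector libraries, and the change was 0.89 (standard error 0.37, adjusted p = 0.061). It passed without Vector library 2 (0.53, adjusted p = 0.011) or without Vector library 3 (1.14, adjusted p = 0.027). EARS2 passed as lower without Vector library 2 (-0.75, adjusted p = 0.003) and LARS2 without Vector library 3 (-0.70, adjusted p = 0.0041).

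For 17 pairs of a cytosolic and a mitochondrial enzyme for the same amino acid, the FPKM ratio within each library was compared between the labels. The groups did not overlap in 11 pairs, 7 with a higher and 4 with a lower cytosolic to mitochondrial ratio under LINC00665, and overlapped in 6. Single genes did not overlap in 70.2% of all tested genes, and no such share was formed for ratios of other genes. The asparaginyl pair moved most in the lower direction, by -1.87 on the log2 scale with FPKM and by -1.53 with CPM. The length assigned to NARS1 was 2710 to 2754 bases under LINC00665 and 2301 to 2311 bases under Vector. That of NARS2 varied 1.33-fold between libraries, so the size of the FPKM difference is uncertain. The ratio of NARS1 to NARS2 was 3.60, 3.10 and 3.19 in the LINC00665 libraries, against 7.48, 24.1 and 9.63 in the Vector libraries, or 1.72 ± 0.12 under LINC00665 and 3.59 ± 0.89 under Vector on the log2 scale (SD, n = 3 each; two-sided exact permutation p = 0.1). The threonyl pair moved most in the higher direction over all 6 libraries, but without Vector library 3 the alanyl pair did, at a difference of 1.47 against 1.30 for the threonyl pair. The ratio of TARS1 to TARS2 was 7.96, 6.54 and 9.77 in the LINC00665 libraries, against 3.17, 3.32 and 3.40 in the Vector libraries, or 2.997 ± 0.29 under LINC00665 and 1.72 ± 0.05 under Vector on the log2 scale (SD, n = 3 each; two-sided exact permutation p = 0.1). The difference in log2 ratio was also positive for the alanyl (1.10), arginyl (1.02) and tyrosyl (0.94) pairs, and negative for the methionyl pair (-1.34), which rests on the uncertain length of MARS1. With 3 libraries against 3 an exact permutation test cannot go below 0.1, and adjusted over the 17 pairs such a p is 0.15, so no pair passed. Pairs that share EPRS1 or FARS2 are not independent.

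**Figure D5:**
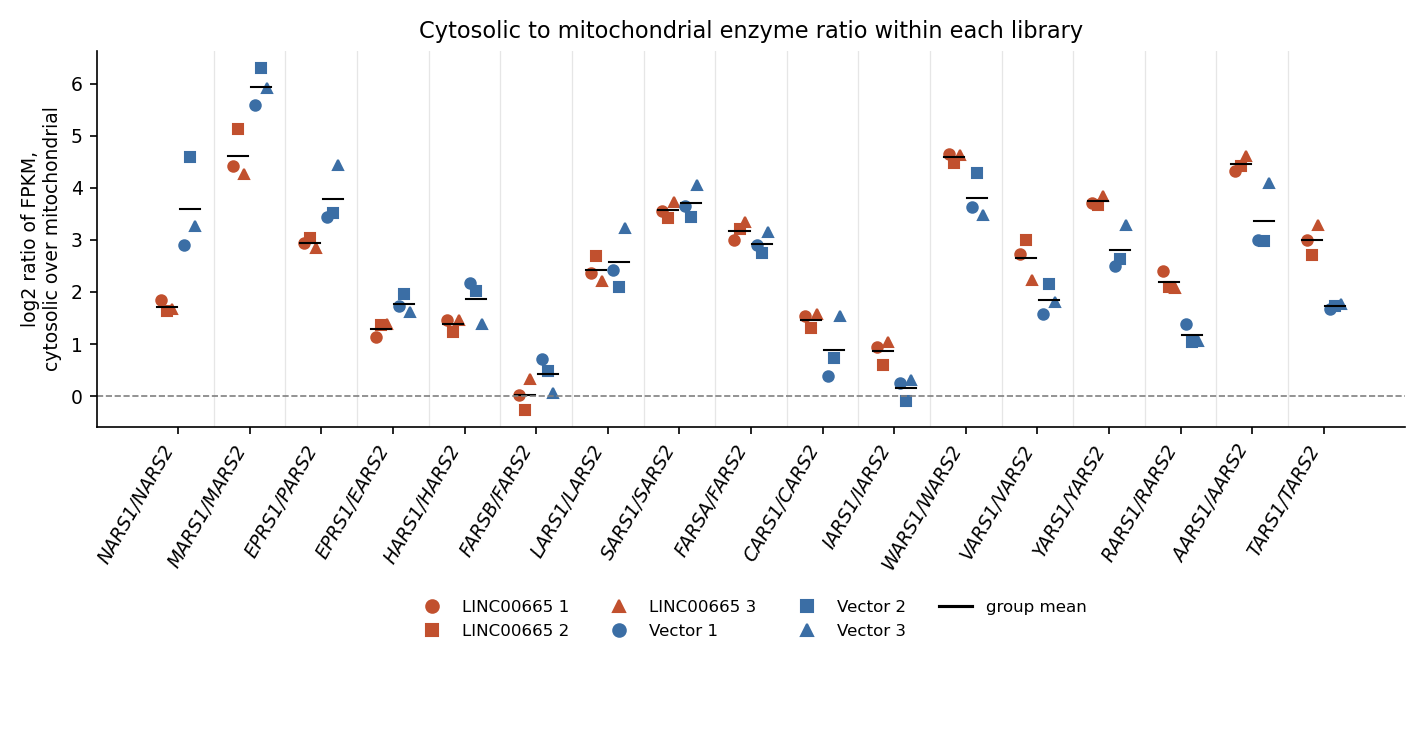
Log2 ratio of cytosolic to mitochondrial enzyme (FPKM, y axis) in each library for 17 amino acid pairs, LINC00665 left and Vector right within each pair, ordered by the difference between labels, with a bar at the group mean. The asparaginyl pair lies lowest under LINC00665 relative to Vector (difference -1.87) and the threonyl pair highest (difference 1.28).

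The histidyl enzymes sit head to head on chromosome 5 (GRCh38), HARS1 at chr5:140673904-140691862 on the minus strand and HARS2 at chr5:140691426-140699318 on the plus strand. Their RefSeq starts are 85 bases apart, and the 86 bases from the HARS1 start to the HARS2 start, printed on the plus strand, show how little sequence lies between a member that fell and one that did not pass.
HARS1 to HARS2 (chr5:140691370-140691455, plus strand): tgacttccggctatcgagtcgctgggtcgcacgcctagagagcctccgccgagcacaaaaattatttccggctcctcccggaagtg
HARS1 had 96.2, 92.4 and 90.7 CPM in the LINC00665 libraries, against 166, 120.3 and 108 CPM in the Vector libraries. HARS2 had 40.8, 44.2 and 38.7 CPM in the LINC00665 libraries, against 42.7, 35.1 and 49.8 CPM in the Vector libraries, and its groups overlapped (log2 fold change -0.04, adjusted p = 0.83). The histidyl genes thus differed in their call, but the within-library FPKM ratio of HARS1 to HARS2 overlapped between the labels. Its difference on the log2 scale was -0.47 (two-sided exact permutation p = 0.3, adjusted over the 17 pairs p = 0.34). EPRS1 and IARS2, which both fell, lie 47444 bases apart on chromosome 1.

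Exons of 13 of the 37 genes overlap those of another gene of the table, and in 6 the overlap covers more than 10% of the exonic bases. Whether counting used strand is not given in the sources used here, so these levels are uncertain. MARS1 (12.4% of its exonic bases) overlaps ARHGAP9 and DDIT3 on the opposite strand. DDIT3, the stress gene for the transcription factor CHOP, averaged 265 ± 44.1 CPM under LINC00665 and 27.9 ± 6.30 CPM under Vector. SARS2 (57.0%) overlaps AC011455.2 on the same strand and the mitochondrial ribosomal gene MRPS12 on the opposite strand. MRPS12 averaged 31.8 ± 2.83 CPM under LINC00665 and 31.4 ± 5.24 CPM under Vector and did not pass. VARS2 (21.99%) overlaps GTF2H4 on the same strand, at 25.5 ± 2.75 CPM under LINC00665 and 33.3 ± 6.34 CPM under Vector. HARS2 overlaps HARS1 and ZMAT2 (15.8%), AIMP1 overlaps TBCK (11.6%) and AIMP2 overlaps EIF2AK1 (28.9%).

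Beside the synthetases, the other genes of the pathway were counted, where 34.2% of all tested genes rose and 29.3% fell. Of 34 tested ATF4 and amino acid response genes 16 rose and 5 fell, with a median log2 fold change of 0.93, against 3 that rose and 4 that fell of the 13 listed synthetases, with a median of -0.05. Without Vector library 3 the list had 23 that rose and 5 that fell, with a median of 1.43, and the 13 synthetases had 6 that rose and 3 that fell, with a median of 0.23. Of all genes tested in that fit 36% rose and 30.3% fell. The library was left out because of its high levels of such genes, so the added rises follow from that choice. PPP1R15A, which directs dephosphorylation of eIF2, averaged 2381 ± 222 CPM under LINC00665 and 125 ± 30.2 CPM under Vector. ATF3, a stress-induced transcription factor, averaged 309.7 ± 36.6 CPM under LINC00665 and 7.85 ± 5.95 CPM under Vector, and SLC3A2, the heavy chain of amino acid exchangers, 879.9 ± 29.3 CPM under LINC00665 and 270.1 ± 26.7 CPM under Vector. ATF4 mRNA did not pass (log2 fold change 0.41, adjusted p = 0.31), but passed without Vector library 3 (0.96, adjusted p = 0.00078). Among 15 eIF2 kinases, activators and subunits 3 rose and 5 fell, with a median of -0.14. The kinase GCN2 (EIF2AK4), which senses uncharged tRNA, fell (log2 fold change -0.76, adjusted p = 0.001), as did its inhibitor IMPACT (-1.08, adjusted p = 0.00047) and the kinase PKR (EIF2AK2, -1.04, adjusted p = 0.0026), while PERK (EIF2AK3), the kinase of the endoplasmic reticulum, rose (0.96, adjusted p = 0.0024).

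Genes that act beside the synthetases were counted in 5 further lists, to be read against the 34.2% of all tested genes that rose and the 29.3% that fell. The lists share genes. ELAC2 and TRNT1 are in both the tRNA editing and the mitochondrial translation list, so the fall of ELAC2 counts in both. XPOT is in both the tRNA editing and the ATF4 list. Of 10 cytosolic elongation factors and complex partners 2 rose and 5 fell, with a median of -0.38. EIF5A fell (log2 fold change -1.13, adjusted p = 0.00036), and EEF1G (0.79, adjusted p = 0.0006) and EEF1D (0.79, adjusted p = 0.0019), subunits of the exchange factor of eEF1A, rose. Of 12 genes for tRNA editing, selenocysteine and amidation 0 rose and 3 fell, with a median of -0.15. These were the tRNA 3′ end nucleases ELAC2 (-1.70, adjusted p = 6.7e-05) and ELAC1 (-1.66, adjusted p = 0.0031) and the D-aminoacyl-tRNA deacylase DTD2 (-1.91, adjusted p = 9.6e-05). Of 25 tested genes of mitochondrial translation and tRNA modification 2 rose and 10 fell, with a median of -0.26. HSD17B10, a subunit of mitochondrial RNase P, fell (-1.18, adjusted p = 0.00089), as did MTO1 (-0.63, adjusted p = 0.0039), while its partner in tRNA wobble modification GTPBP3 rose (1.01, adjusted p = 0.00092). Of 15 regulators of mitochondrial transcription and biogenesis 5 rose and 3 fell, with a median of -0.15. The coactivator PPARGC1A averaged 11.4 ± 2.10 CPM under LINC00665 and 0.0185 ± 0.0321 CPM under Vector. Its partner ESRRA also rose (1.83, adjusted p = 3.8e-05), and TFAM (-1.23, adjusted p = 0.00039), which packages mitochondrial DNA, and GABPA (-0.73, adjusted p = 0.0068) fell. Of 23 genes of RNA polymerase III, which transcribes the tRNAs, and its factors 4 rose and 11 fell, with a median of -0.36. GTF3C6 averaged 5.78 ± 0.784 CPM under LINC00665 and 59.2 ± 5.53 CPM under Vector. GTF3C1 fell (-1.26, adjusted p = 0.0001) and BRF2 rose (1.46, adjusted p = 9.8e-05).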

How the data were processed

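RNA of 6 libraries was extracted with TRIzol and made into TruSeq libraries, per the labels' protocols. The authors deposited 1 table of 20289 genes with expected counts per gene and library, not normalised and 88.3 to 89.4% whole, per the file headers and values. The FPKM values in the deposited table are the authors' own normalisation to length and depth, as the file headers name them. HISAT2 2.0.4 and hg38 are named in the submitters' processing notes. Which counter and annotation served, and whether strand was used, is not given in the sources used here.

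Expected counts were rounded, filtered with filterByExpr, scaled by TMM and tested with edgeR 4.0.16 (glmQLFit, glmQLFTest; R 4.3.3), with Benjamini-Hochberg adjustment over 13552 genes and a threshold of 0.05. Standard errors came from the fold change and F, CPM values are TMM-scaled except in the assigned lengths, and FPKM was used where genes are compared. A gene "rose", "fell" or "passed" by this test. The script was tested on simulated data. DESeq2 1.42.0 and limma 3.58.1 served as alternatives.

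Members and gene lists were chosen with earlier results of these data known. Per-library values are given for the 4 members with the smallest p per compartment and direction, the scaffolds, GARS1, KARS1 and the 2 most changed pairs, and up to 4 genes per list are named; other genes given by library were chosen after their values were seen. Replicates of a label were not duplicate libraries (chi-square per degree of freedom 10.2 to 121). Positions are from GENCODE v29 on GRCh38, the assembly of hg38, and promoters from RefSeq GRCh38.p14.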

Additional observations from a re-analysis of the deposited data

How the results depend on the processing

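With 3 libraries per label, the smallest exact permutation p is 0.1 and calls near the threshold move with single libraries. Leaving out 1 library at a time gave 5 to 10 members that rose and 9 to 16 that fell, with 2 to 6 cytosolic enzymes that rose and 5 to 8 that fell. The extremes were without LINC00665 replicate 1, Vector replicate 2 or Vector replicate 3. The number of cytosolic enzymes that rose was 5 under DESeq2, limma-voom and the replicate block, against 3, with GARS1 and SARS1 added. A filter on a mean of 1 CPM under both labels left 5 cytosolic enzymes that fell, against 8. At a threshold of 0.01, 9 members and 5 cytosolic enzymes fell. At the threshold of 0.05 with a log2 fold change of at least 1 in either direction, 5691 genes passed over the table, 2 members rose and 4 fell, 1 cytosolic enzyme rose and 0 fell, and 1 mitochondrial enzyme rose.

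Signs changed only in genes that did not pass. Under the 1 CPM filter MARS1 moved to 0.013, QARS1 to 0.0023, HARS2 to 0.023 and AIMP2 to 0.018 on the log2 scale, and on FPKM (pseudocounts of 1 and 0.1) FARSA moved to -0.082 and -0.083. With 1 library left out MARS1 ranged from -0.20 to 0.23, QARS1 from -0.13 to 0.00047, HARS2 from -0.17 to 0.083, PARS2 from -0.26 to 0.054, WARS2 from -0.027 to 0.35 and AIMP2 from -0.22 to 0.23. Scaling by total counts moved the median of all genes from 0.03 to -0.13, with 5 members that rose and 18 that fell. The cause of these moves was not tested.

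Same-numbered libraries did not deviate together (correlations of deviations 0.152, -0.132 and -0.154), and not every library correlated best with its own number, so the numbers were not used as pairs. With the replicate block 8 members rose and 13 fell.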

Other observations

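The length that the deposited FPKM values assign to a gene can be read from the ratio of CPM to FPKM. For these lengths CPM was scaled by total counts and not by TMM. The length differed between libraries for some synthetases. For MARS1 it was 1347, 1049.8 and 1751 bases in LINC00665 libraries 1 to 3, against 1158, 891 and 1333 bases in Vector libraries 1 to 3, a 1.97-fold range where the median gene had a 1.09-fold range. For QARS1 it was 2342, 2211 and 2352 bases in the LINC00665 libraries, against 1965, 1821 and 1849.6 bases in the Vector libraries. QARS1 fell when limma-trend was run on log2(FPKM + 1) (log2 fold change -0.51, adjusted p = 0.006) and did not pass on counts (-0.06, adjusted p = 0.69). NARS1 was assigned 2710, 2754 and 2728 bases in the LINC00665 libraries, against 2301, 2311 and 2310 bases in the Vector libraries. The levels of these genes per length, and the methionyl and asparaginyl pair ratios, carry that uncertainty. Changes in the transcript forms counted were not tested.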
